A study of Chlamydomonas reinhardtii with 34 samples.

Results

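The response of CC-4349, a starch-making strain of the green alga Chlamydomonas reinhardtii, to prolonged loss of nitrogen was measured by RNA sequencing in 5 of the 34 libraries of a larger time course. The members were chosen by strain and time point from the sample labels, and no measured value entered the choice. The late starvation group held 3 CC-4349 libraries, taken after 24 h and 48 h without nitrogen and at 0 h of an acetate addition made after 48 h without nitrogen. The replete group held 2 CC-4349 libraries, taken before the cells were washed and at 0 h after transfer to medium without nitrogen. All of these cells were grown in HSM, a minimal medium, under a photon flux of 25 µmol per square metre and second, and the wash medium was HSM lacking ammonium chloride. The labels do not say whether the 0 h acetate sample was taken before or after acetate was added. The study set CC-4349 beside sta6 (CC-4348), a mutant that makes no starch, and followed each strain at 17 time points with 1 library each. The other 12 CC-4349 libraries, from 0.5 to 12 h without nitrogen and from 0.5 to 48 h after acetate, served here to estimate the spread and to place the response in time.

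Chlamydomonas takes up ammonium as its nitrogen source, and without nitrogen it stops dividing, recycles nitrogen from its ribosomes and photosynthetic proteins, and stores carbon as starch and triacylglycerol. Gametogenesis, the change into mating-competent cells, is also set off by loss of nitrogen in this alga. CC-4349 retains the starch pathway that sta6 lacks, so it shows the starvation response in cells that can use both carbon stores. The identifiers in the deposited table come with no gene names, and the matching reference table gives none, so loci are given by identifier and no function is assigned to them.

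Late starvation in CC-4349 was a broad remodelling of the transcriptome in which more genes rose than fell on the deposited scale, and in which the genes that fell took the larger part of the reads that both classes held in replete cells. Tests covered the 14354 genes whose mean over the 17 CC-4349 libraries was 1 RPKM or more (reads scaled by gene model length and library size). Of these, 4249 were called, or 29.6% of those tested. A call was an adjusted p under 0.05 (limma, Benjamini-Hochberg) with at least a 2-fold change on the log2(RPKM + 1) scale. In late starvation 2930 genes (20.4%) rose and 1319 (9.19%) fell. At any size of change, 7102 genes had an adjusted p under 0.05. The median change of all genes tested was 0.30 on the log2 scale, and the split of directions depended on that shift. When libraries were rescaled by median of ratios, which brought the median to -0.01, 1932 genes rose and 2000 fell, so the share of calls that were higher was 49.1% against 69.0% as deposited. With quantile normalization 1851 rose and 1795 fell, a share of 50.8%. No gene called as deposited was called in the opposite direction under either scaling, and 3251 and 3072 of the 4249 calls were shared with them. Being relative to the library total, these values cannot tell a change in a transcript from a change in the total RNA of the cells. In a culture sampled in bulk, fewer cells of a kind and less RNA per cell cannot be told apart either.

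**Figure D1:**
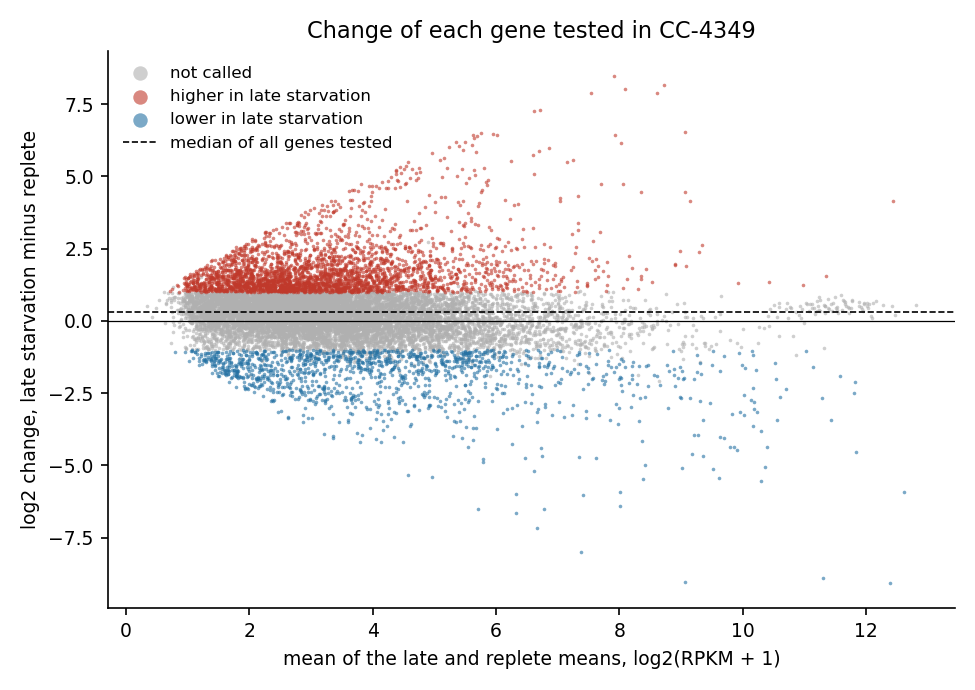
Change of each of 14354 genes between late starvation and replete CC-4349 cells (vertical axis, log2 scale) against its mean level (horizontal axis, log2(RPKM + 1)), with 2930 genes that rose in red, 1319 that fell in blue and the remainder in grey. The dashed line is the median change of 0.30, and the edge on the left is where a gene with no signal in the other group must lie.

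Time points stood in for replicates, since the labels give 1 library per time point and do not say that the time points came from separate cultures. The p-values therefore measure the spread between successive samples, and any dependence between these makes them too small. In 4232 of the 4249 called genes every late library lay on the same side of both replete libraries, beside 9684 (67.5%) of all genes tested. An exact permutation of 3 libraries against 2 has 10 arrangements and cannot give a one-sided p below 0.1, so single genes were judged only by the fit across all genes. Read totals recovered from the deposited values were 20.99, 16.03 and 21.6 M in the late libraries, against 18.08 and 11.71 M in the replete libraries, so that for a model 1 kb long a single read stood for 0.0463 to 0.0854 RPKM. The shallowest of the 5, at 0 h without nitrogen, listed the most gene models at 0, 1451 of 17301, against 1071 in the late library at 0 h of acetate. How far depth contributed to the calls was not tested. Cre03.g188250.t1.1, tied by general knowledge to the gene disrupted in sta6, served as a check of the strain labels. It held 148, 100 and 148 RPKM in the late and 170 and 170 RPKM in the replete CC-4349 libraries, against sta6 means of 5.89 RPKM late and 2.21 RPKM replete.

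The groups were internally alike and clearly apart. Across genes, Pearson's r on the log2 scale was 0.967 to 0.977 between the late libraries and 0.959 between the replete libraries, and 0.758 to 0.805 between a late and a replete library. These correlations run over 14354 genes, which are not independent replicates. Between 24 h and 48 h only 370 genes moved at least 2-fold, 203 up and 167 down, or 2.58% of those tested. The 0 h acetate library differed from the 48 h library by as much in 333 genes, or 2.32%. The replete libraries differed from each other in 868 genes (6.05%), with 446 higher and 422 lower at 0 h than before the wash. Genes of the class that fell were the most mobile within the late group. At 48 h, 21 of these 1319 genes were at least 2-fold above their 24 h level and 82 as far below it. At 0 h of acetate, 115 were as far above their 48 h level and 27 below it. Against 24 h, 10.4% of them had moved as far at 0 h of acetate, 35 genes up and the remainder down. Of the 2930 genes that rose, 61 were above and 13 below at 48 h against 24 h, and 29 above and 15 below at 0 h of acetate against 48 h.

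The sizes of change were long-tailed. At least 4-fold rises were seen in 747 genes, at least 8-fold in 241, at least 16-fold in 114 and at least 64-fold in 21. The corresponding counts of falls were 424, 134, 50 and 10. These sizes are on the log2(RPKM + 1) scale, which understates the change of weakly expressed genes. The genes that rose were weakly expressed when nitrogen was present, with a median level of 11.7 RPKM in late starvation and 2.81 RPKM in replete cells. The genes that fell had medians of 5.75 RPKM late and 22.3 RPKM replete, and the genes without a call 8.43 and 7.61 RPKM. The calls used these same levels, so the contrast between the classes is a description. Gene model length, as recovered from the deposited values and not used by the call, had a median of 2430 bases in genes that rose. It was 2117 in genes that fell and 2323 in all genes tested. Whether the recovered lengths equal those of the annotated models was not checked. In 37 of the rises and 12 of the falls no library held more than 40 reads.

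Measured as reads, the exchange between the classes was large. The classes were called from these same libraries on the deposited scale, so the directions of the shifts were set in advance and the shares are a description. Genes that rose took 25.0%, 25.4% and 26.4% of the reads of the late libraries, against 6.00% and 6.39% in the replete libraries. Genes that fell took 7.46%, 5.93% and 6.49% of reads in the late libraries, against 30.3% and 29.8% in the replete libraries. The genes without a call held the remaining 66.8% to 68.4% of reads in the late libraries, and 63.4% and 63.6% in the replete ones. The smaller class of falling genes thus held a larger share of replete reads than the larger class of rising genes did of late reads.

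**Figure D2:**
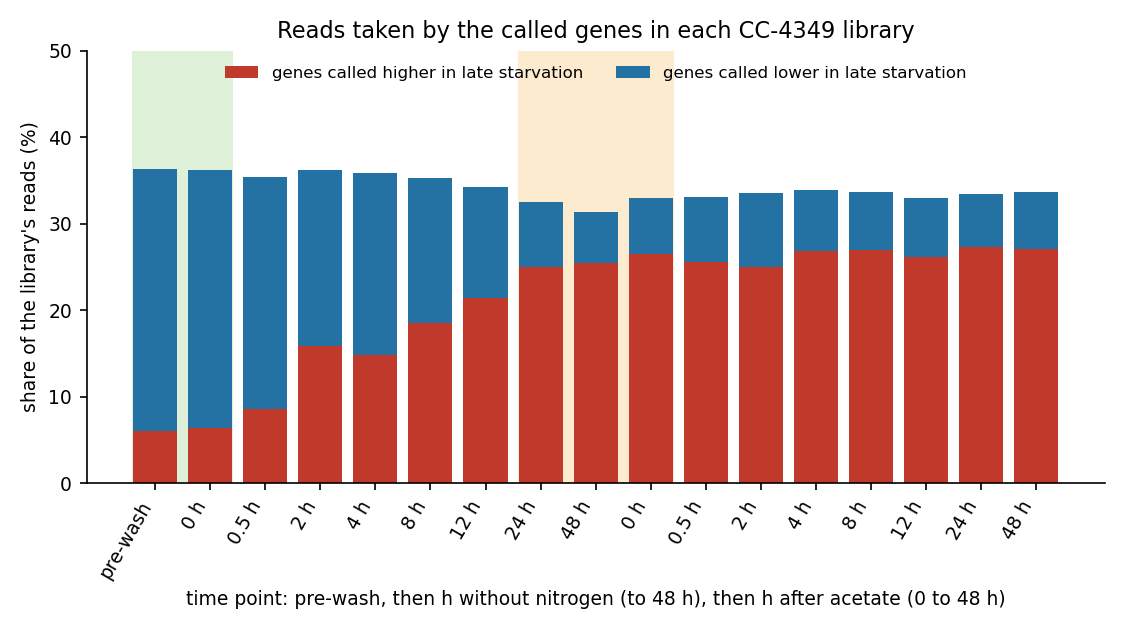
Share of each CC-4349 library's reads (vertical axis, percent) in genes that rose (red) and genes that fell (blue) in late starvation, for the 17 time points in order. The replete libraries are shaded green and the late starvation libraries orange. Red takes 25.0% to 26.4% of reads in the late libraries and 6.00% and 6.39% in the replete ones, and stays near its late level after acetate.

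Falls were also called more often among abundant transcripts when genes were ranked in the other strain. Ranked by replete sta6 libraries, which did not enter the fit, the top 500 genes included 171 that fell and 15 that rose in CC-4349, 34.2% and 3.0% beside 9.19% and 20.4% of all genes tested. Their median change was -0.75 on the log2 scale, beside 0.30 over all genes. In the top 100, 34 fell and 1 rose, and 65 had no call, with a median change of 0.24. Ranked instead by late sta6 libraries, the top 500 held 90 that fell (18.0%) and 96 that rose (19.2%), with a median change of 0.12. Falls thus exceeded their share of all genes tested under this ranking too. Where the strains express a gene alike, its rank in sta6 is not independent of its replete level in CC-4349.

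By the rule for naming loci, the largest rises and falls with separated groups were those of 2 loci in each direction. The same 4 loci also met the part of the rule for abundant transcripts. Cre10.g448450.t1.2, with a recovered length of 3116 bases, held 293, 517 and 626 RPKM at 24 h, 48 h and 0 h of acetate, against 0.390 and 0.192 RPKM before the wash and at 0 h. These values rest on 19150, 25805 and 42108 reads in the late libraries, against 22 and 7 reads in the replete ones. The locus was all but silent in replete cells and high in each late library. Its mean was 478 ± 170 RPKM in late starvation (SD, n = 3 time points) and 0.291 ± 0.141 RPKM in replete cells (SD, n = 2), a ratio of 1643. The log2 change was 8.47 (SE 0.664), with a limma adjusted p of 2.67e-07. Its rise was gradual, with 5.21 RPKM at 2 h, 69.3 RPKM at 12 h and 486 RPKM still present 48 h after acetate.

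Cre10.g442800.t1.2, with a recovered length of 2846 bases, rose earlier and by a smaller ratio. It held 916, 749 and 849 RPKM in the late libraries, against 1.59 and 2.31 RPKM in the replete libraries. The mean was 838 ± 84.4 RPKM late (SD, n = 3) and 1.95 ± 0.506 RPKM replete (SD, n = 2), a ratio of 429, with no overlap between the groups. Its log2 change was 8.16 (SE 0.925), with a limma adjusted p of 6.46e-06. It already stood at 374 RPKM after 2 h without nitrogen and 776 RPKM after 12 h, and at 1087 RPKM 48 h after acetate.

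Cre12.g548950.t1.1 was abundant in replete cells and low in each late library. It held 39.2, 26.0 and 6.48 RPKM in the late libraries, against 10535 and 10882 RPKM in the replete libraries, from 282, 143 and 48 reads against 65334 and 43721. The late values were uneven, yet each lay far below both replete values. The mean was 23.9 ± 16.4 RPKM late (SD, n = 3) and 10709 ± 246 RPKM replete (SD, n = 2), 448-fold lower. On the log2 scale it changed by -9.06 (SE 0.606), with a limma adjusted p of 9.47e-08. The length recovered for it is short, at 343 bases, and whether this is its whole gene model was not checked. Its level declined from library to library after 0 h, with 4395 RPKM at 2 h and 667 RPKM at 12 h.

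Cre06.g283950.t1.1, with a recovered length of 355 bases, held 2.15, 0.878 and 0.391 RPKM in the late libraries, against 981 and 1155 RPKM in the replete libraries. Only 16, 5 and 3 reads were behind the late values, against 6299 and 4801 reads in the replete libraries. The mean was 1.14 ± 0.906 RPKM late (SD, n = 3) and 1068 ± 122 RPKM replete (SD, n = 2), 938-fold lower. Its log2 change was -9.04 (SE 0.551), with a limma adjusted p of 4.57e-08. Unlike Cre12.g548950.t1.1, it was still at 873 RPKM after 2 h without nitrogen, and it stood at 34.4 RPKM after 12 h.

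**Figure D3:**
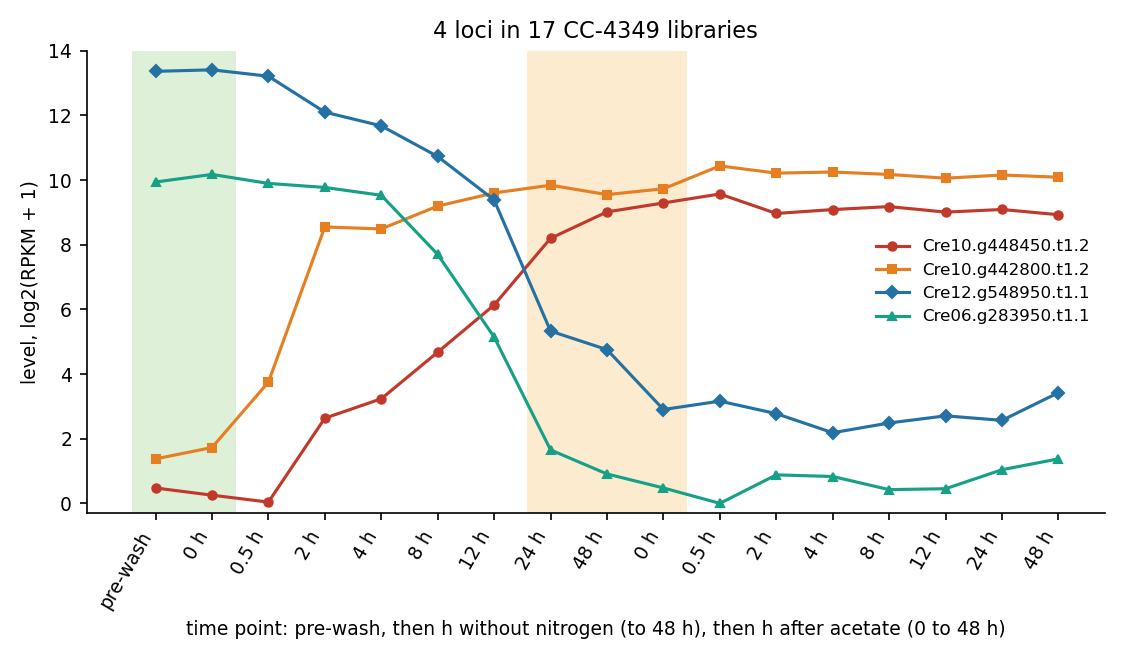
Level of the 4 named loci (vertical axis, log2(RPKM + 1)) in each of the 17 CC-4349 libraries in time order, 1 library per point, with the replete libraries shaded green and the late starvation libraries orange. Cre10.g442800.t1.2 is at 374 RPKM by 2 h, below its late values of 749 to 916 RPKM, whereas Cre10.g448450.t1.2 climbs through 12 h (69.3 RPKM). Cre06.g283950.t1.1 stays high at 2 h (873 RPKM), when Cre12.g548950.t1.1 is already lower (4395 RPKM).

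The neighbours of these extremes were examined next. They, and the other loci named from here on, were chosen after their values were seen. Cre10.g448450.t1.2 lies in a run of 4 adjacent tested loci that all rose, from Cre10.g448350.t1.2 to Cre10.g448500.t1.2, with log2 changes of 1.73 to 8.47. Cre10.g448400.t1.2 held 89.8, 82.6 and 131 RPKM late, against 0.146 and 0.226 RPKM replete (3 reads each). Its log2 change was 6.40 (SE 0.833, limma adjusted p = 2.1e-05). Cre10.g448500.t1.2 held 79.5, 94.6 and 116 RPKM late, against 0.143 and 0.0944 RPKM replete (7 and 3 reads). Its log2 change was 6.43 (SE 0.476, limma adjusted p = 1.77e-07). The 3 loci did not rise in step, since at 2 h without nitrogen Cre10.g448400.t1.2 was already at 65.9 RPKM while Cre10.g448450.t1.2 was at 5.21 RPKM and Cre10.g448500.t1.2 at 1.67 RPKM. Whether reads were counted by strand is not given in the sources used here, so reads that overlapping neighbours may share cannot be told apart.

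Other deep falls lay on the same stretch as Cre06.g283950.t1.1. From it to Cre06.g284600.t1.1 there are 14 tested loci, both ends included, of which 5 fell, 2 rose and 7 had no call. The ends and Cre06.g284250.t1.1 were picked because they fell, so these counts are not to be read against the 9.19% of all genes tested that fell, and no run of adjacent falls lies here. Cre06.g284600.t1.1 held 0.352, 0.395 and 0.147 RPKM late (7, 6 and 3 reads), against 317 and 340 RPKM replete (5436 and 3776 reads). Its log2 change was -7.99 (SE 0.543, limma adjusted p = 9.53e-08). Cre06.g284250.t1.1 held 0.125, 0.246 and 0 RPKM late (2, 3 and 0 reads), against 90.6 and 115 RPKM replete (1247 and 1022 reads). Its log2 change was -6.52 (SE 0.381, limma adjusted p = 3.82e-08). After 2 h without nitrogen Cre06.g284600.t1.1 was at 64.0 RPKM, whereas Cre06.g284250.t1.1, at 109 RPKM, lay within its replete range. By 12 h they were at 3.23 and 0.575 RPKM.

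Over the whole order of loci on the RefSeq assembly, which pairs 8521 neighbouring tested loci, calls were somewhat more often alike in neighbours. The neighbour of a locus that rose also rose in 24.5% of cases, beside 18.9% for the neighbours of all loci. The neighbour of a locus that fell also fell in 12.6% of cases, beside 9.70% for all. Runs of 4 or more adjacent loci called in the same direction numbered 15, of which 14 were rises and 1 a fall. The longest held 6 loci, from Cre08.g381100.t1.2 to Cre08.g381350.t1.1, with log2 changes of 1.58 to 2.80. No test was made of this clustering, and neighbours can share reads or be near copies of each other.

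A few genes were switched on from no detectable transcript. In both replete libraries 22 of the genes tested had 0 reads, and 17 of them were called higher, a class that had to rise to pass the expression filter. At least 10 reads in each late library were found for 12 of the 22. The strongest of these was Cre06.g254950.t1.2, with 41.1, 33.5 and 62.6 RPKM in the late libraries (951, 592 and 1489 reads), against 0 reads in each replete library. Its late mean of 45.7 RPKM was at least 500.4-fold higher than the 0.0914 RPKM that 3 reads over both replete libraries would give. This bound covers counting error only. It stood at 0.551 RPKM at 2 h and 20.8 RPKM at 12 h, so it too rose gradually. For the other 11 loci the late means were 1.89 to 22.5 RPKM and the bounds ran from at least 19.9-fold to at least 159-fold higher. In the other direction 1 tested gene had no read in any late library, and it held fewer than 10 reads in at least 1 replete library.

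The 12 remaining CC-4349 libraries showed when these changes arose. Levels were compared with the replete mean, which the calls also used, so the shares below describe the called genes and test nothing. Of the genes that rose, 15.8% were at least 2-fold above the replete mean after 0.5 h without nitrogen, 41.1% after 2 h, 37.2% after 4 h, 53.2% after 8 h and 67.7% after 12 h. Over all genes tested, 5.27%, 13.1%, 10.3%, 12.8% and 16.1% were as far above at the same times. The genes that fell lagged, with 10.9%, 19.2%, 21.3%, 33.9% and 62.6% at least 2-fold below the replete mean at those times. Over all genes tested, 5.09%, 7.73%, 4.74%, 5.88% and 8.46% were as far below. With other pseudocounts, filters, scalings or sample sets the shares at 2 h ranged from 36.2% to 51.3% for rises and from 18.8% to 26.4% for falls. At 12 h the ranges were 64.6% to 75.4% and 56.7% to 68.4%. The lag of the falls was smaller with median-of-ratios scaling, with 38.5% of rises and 26.4% of falls past 2-fold at 2 h. By 12 h these shares were 70.4% and 68.4%.

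Genes were also sorted by the time from which they stayed past 2-fold up to the late group. Of the 2930 that rose, 806 (27.5%) did so from 2 h or earlier and 1778 (60.7%) from 12 h or earlier. The remaining 1152 (39.3%) either did so only from a late library on or were not past 2-fold in the last late library. In that library, at 0 h of acetate, 2753 of the rises were past 2-fold. Of the 1319 that fell, 162 (12.3%) stayed past 2-fold from 2 h or earlier and 724 (54.9%) from 12 h or earlier. The remaining 595 (45.1%) are again a mix of these 2 kinds, with 1176 of the falls past 2-fold at 0 h of acetate. Among the 5 time points before the late group, which are unequally spaced, most rises were added at 2 h (507 genes) and most falls at 12 h (342 genes). The read shares moved alike, with 15.9% of reads in rising genes and 20.4% in falling genes at 2 h, and 21.4% and 12.9% at 12 h.

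**Figure D4:**
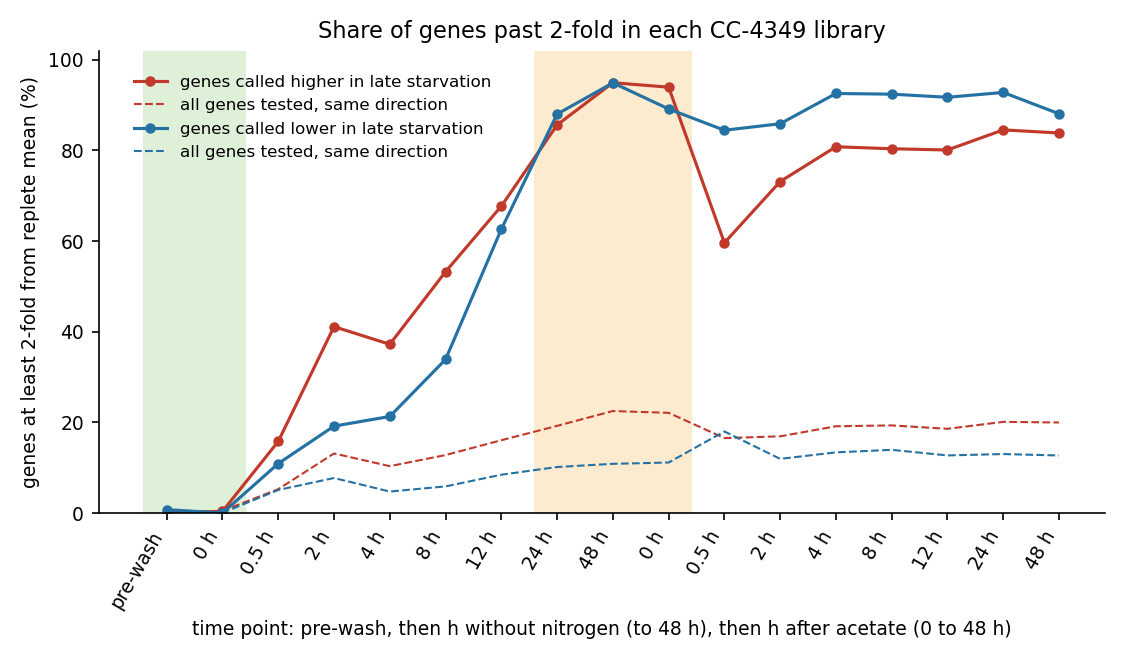
Share of genes at least 2-fold from the replete mean (vertical axis, percent) in each of the 17 CC-4349 libraries in time order, for the 2930 genes that rose (solid red) and the 1319 that fell (solid blue), with all 14354 genes tested in the same direction as dashed lines. Shading marks the replete (green) and late starvation (orange) libraries. Rises lead falls at 2 h (41.1% and 19.2%), both are near complete at 48 h (94.9% each), and at 0.5 h after acetate 59.6% of rises are still past 2-fold.

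Most of the response was still in place after acetate, which the cells can use as a carbon source. At 48 h after its addition 83.9% of the genes that rose were still at least 2-fold above the replete mean, and 88.1% of those that fell were still as far below. The sharpest departure came at 0.5 h after acetate, when the share of rises past 2-fold dropped to 59.6% and that of falls was 84.5%. In that library 18.0% of all genes tested were at least 2-fold below the replete mean, the highest such share of the 17 libraries, and only 13046 gene models reached 1 RPKM, the fewest. Its total of 12.8 M reads was among the lowest as well, and the part of depth in this dip was not tested. The labels record no return of nitrogen with the acetate. No CC-4349 library was taken past 48 h without nitrogen in the absence of added acetate, so acetate and longer starvation cannot be told apart.

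The comparison with sta6 asked where the response of CC-4349 differed. Each strain gave 1 library per time point. Starch making, other differences between the strains and differences between their cultures therefore cannot be told apart. The difference of the late starvation changes, CC-4349 minus sta6, passed the same call rule (limma adjusted p under 0.05 and at least 2-fold) for 415 of 14513 genes, or 2.86%. Of these 276 (1.9%) had the higher change in CC-4349 and 139 (0.958%) the lower. The split was 200 to 154 after median-of-ratios scaling and 187 to 166 after quantile normalization. With matched time points of the strains as a block, 935 genes were called, 611 with the higher and 324 with the lower change in CC-4349. Among 2906 genes that rose in CC-4349 and were tested in both fits, 153 had a change called higher than in sta6 and 13 a change called lower. Among 1305 that fell, 50 had a change called lower, that is a deeper fall, and 6 a change called higher. Both splits come from the fit without the block, as do the strain differences below unless the block is named. These genes were picked by their CC-4349 change, which is also part of the difference, so the splits lean this way in advance. They do not show a stronger response in CC-4349. The count of 415 over all genes tested was made without such a pick. The replete sta6 libraries weighed heavily on this count, which was 754 without the sta6 pre-wash library and 248 without the sta6 0 h library. Without the CC-4349 0 h library it was 222.

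Most calls were common to the strains, which share no library. Of the CC-4349 rises, 1913 were also called higher in sta6, 65.8% of the CC-4349 list and 74.7% of the sta6 list. Of the falls, 1014 were called lower in both, 77.7% of the CC-4349 list and 53.9% of the sta6 list. For scale, sta6 had 2560 genes called higher and 1883 called lower among all 14240 tested in both fits. Opposite calls were few, with 5 genes higher in CC-4349 and lower in sta6 and 2 the other way round. A call in CC-4349 without a call in sta6, as in 988 rises and 289 falls, does not show that the strains differed, and the difference itself was called for 124 and 29 of these.

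**Figure D5:**
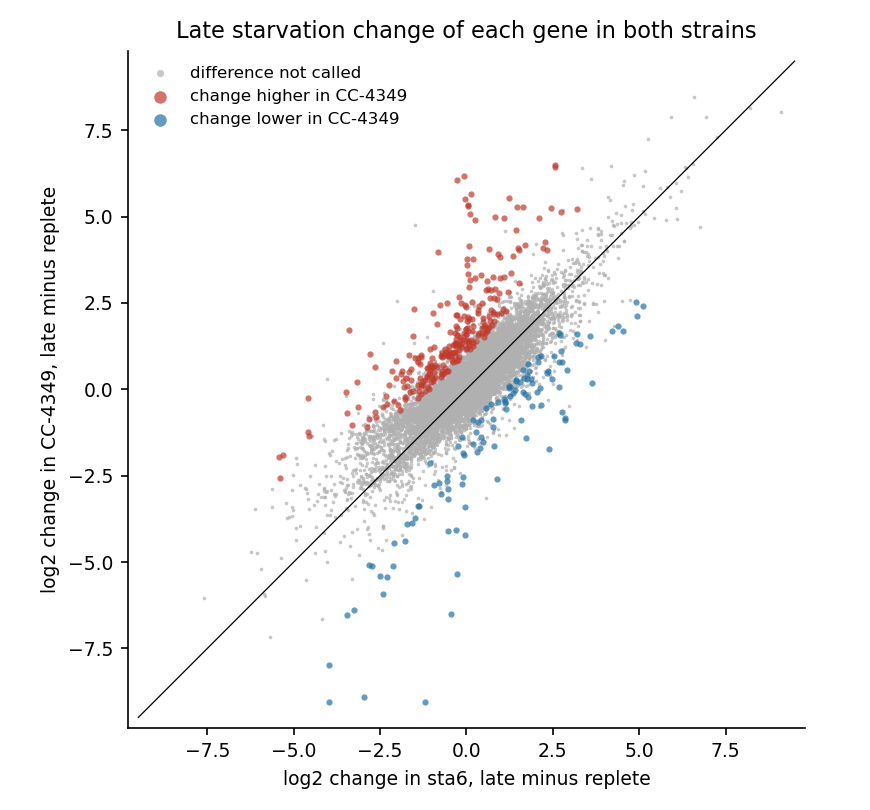
Late starvation change in CC-4349 (vertical axis, log2) against that in sta6 (horizontal axis, log2) for the 14240 genes tested in both fits, with the line of equal change. Red marks genes whose change was called higher in CC-4349, blue those called lower, and grey the remainder. Not all of the 276 and 139 calls among the 14513 genes tested for the difference are therefore drawn. These calls are from the fit without the time point as a block.

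Of the loci described above, the 4 that fell also differed between the strains. The late level of Cre12.g548950.t1.1 was 23.9 ± 16.4 RPKM in CC-4349 and 635 ± 73.0 RPKM in sta6 (SD, n = 3 each). The changes differed by -5.07 (SE 0.867, limma adjusted p = 0.000669). The late level of Cre06.g283950.t1.1 was 1.14 ± 0.906 RPKM in CC-4349 and 549 ± 546 RPKM in sta6 (SD, n = 3 each), the sta6 libraries being uneven. The changes differed by -7.86 (SE 0.823, limma adjusted p = 1.82e-06). Its neighbours Cre06.g284250.t1.1 (difference -3.07, limma adjusted p = 0.00298) and Cre06.g284600.t1.1 (difference -4.03, limma adjusted p = 0.038) also fell further in CC-4349 than in sta6. The call of Cre06.g284600.t1.1 was fragile, since leaving out any single CC-4349 late or replete library, either sta6 replete library or the sta6 24 h library gave an adjusted p of 0.0583 to 0.129, and median-of-ratios scaling 0.0535. With a pseudocount of 5 neither neighbour was called (adjusted p = 0.259 for Cre06.g284600.t1.1 and 0.16 for Cre06.g284250.t1.1). Other settings kept the call of Cre06.g284600.t1.1, among them the time point as a block (limma adjusted p = 0.000216) and a pseudocount of 0.1 (limma adjusted p = 0.00906). Among the rises, Cre06.g254950.t1.2 averaged 45.7 RPKM in late CC-4349 and 0.0291 RPKM in late sta6, a difference in change of 5.53 (SE 0.596, limma adjusted p = 2.15e-06). This locus was at or near 0 in every sta6 library, with 0.109 RPKM before the wash as the highest value. Its difference therefore restates the CC-4349 rise beside a strain in which the locus was hardly detected at any time point. By contrast Cre10.g442800.t1.2 differed by -0.06 (SE 1.48, limma adjusted p = 0.992) and Cre10.g448450.t1.2 by 1.87 (SE 0.878, limma adjusted p = 0.323). With standard errors of this size, several-fold differences of Cre10.g442800.t1.2 in either direction would go uncalled. The difference of Cre10.g448450.t1.2 was called with the time point as a block (1.87, limma adjusted p = 0.015) and with a pseudocount of 5 (2.11, limma adjusted p = 0.0313). With a pseudocount of 0.1 it was only 0.33 (limma adjusted p = 0.958). Both sta6 replete libraries held 0 RPKM of this locus, so the size of its difference depends on the pseudocount.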

How the data were processed

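RNA of CC-4349 and sta6 was sequenced at 17 time points per strain. The deposited table gives 1 value for each of 17301 gene models and 34 libraries. The authors' unit is not named; the deposited values were read as RPKM, since low values are whole multiples of a step that scales with model length and library. Bowtie aligned the reads, per the submitters' processing notes. Build, annotation, counting rule and strand setting: not given in the sources used here. Library totals, model lengths and reads were recovered from these steps for 16387 models. In them 99.996% of values were whole within 0.05 reads, and the recovered reads covered at least 99.9988% of each total. On 17 simulated libraries with 16167 genes, 99.7% of genes were recovered. Columns were matched to samples by the names in the descriptions, and the name of 1 column (sta6, 24 h after acetate) ends differently from the others.

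Values were analysed as log2(RPKM + 1) for genes averaging 1 RPKM or more, with limma 3.58.1 in R 4.3.3 (linear models, empirical Bayes with trend, Benjamini-Hochberg adjustment over all genes tested). The CC-4349 fit used 17 libraries in 6 phases of the time course (11 residual degrees of freedom) and the strain difference used 34 libraries in 12 groups (22 degrees of freedom). Late starvation minus replete was the contrast. The labels give the strains the same time points but no shared culture or batch. Deviations of matched time points from their group means correlated at -0.10 to 0.72, over 0.1 in 15 of 17 pairs and in each of the 5 pairs of the contrast (0.18 to 0.61). In a group of 2 libraries the deviations mirror each other and both pairs give the same value, so these correlations are not independent. They may also hold changes over time common to the strains. Results of the fit with the time point as a block are therefore given where they differ. On simulated data with 14314 genes, the CC-4349 comparison recovered 79 of 100 genes changed by 1.5 on the log2 scale and 98 of 100 changed by 3, with 5 false calls; these libraries were drawn independently, unlike successive time points.

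Named loci were those 2 called loci per direction that changed most and whose groups did not overlap, and likewise among loci of at least 100 RPKM. The rule's gene lists (26 written) could not be used: 12666 of 17301 identifiers (73.2%) matched RefSeq locus tags on assembly Chlamydomonas_reinhardtii_v5.5, but it gives no symbols, so 0 list members were matched. That assembly served only for the order of neighbouring loci. Members, lists and loci were chosen with earlier results of these data known. Alternatives were pseudocounts of 0.1 and 5, other filters, median-of-ratios and quantile scaling, other sample sets, each of the libraries left out in turn, a time point block for the strain difference, and limma-voom on the recovered reads, the last chosen after seeing the data.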

Additional observations from a re-analysis of the deposited data

Results flagged for a closer look

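Each of the loci in this section stood out because its late starvation change differed between the strains by a test of the difference itself (limma, 34 libraries). The values are the change in CC-4349 minus the change in sta6, on the log2 scale. Of the loci that fell, the value was -5.07 for Cre12.g548950.t1.1, -7.86 for Cre06.g283950.t1.1, -4.03 for Cre06.g284600.t1.1 and -3.07 for Cre06.g284250.t1.1. The locus that rose from no reads, Cre06.g254950.t1.2, had a value of 5.53, and no sta6 library held more than 0.109 RPKM of it. The late sta6 level of Cre06.g283950.t1.1 was 1180 RPKM at 24 h, 245 RPKM at 48 h and 223 RPKM at 0 h of acetate, and its difference was -7.08 without the 24 h library.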

How the results depend on the processing

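The 4249 calls became 5127 with a pseudocount of 0.1 and 2167 (1324 higher, 843 lower) with a pseudocount of 5. Median-of-ratios scaling gave 1932 higher and 2000 lower and quantile normalization 1851 higher. Fits with no filter, a minimum of 5 RPKM, 34 libraries or 5 libraries gave 4293, 2984, 4275 and 4385 calls, and limma-voom on the recovered reads, chosen after seeing the data, 5205, of which 4226 were shared. Leaving out each library gave 3974 to 4465 calls, 2700 to 3361 higher and 1104 to 1351 lower. All 126 repeats of the named loci's changes kept call and direction. Of 153 repeats of their strain differences, 11 lost a call (10 of Cre06.g284600.t1.1 and 1 of Cre06.g284250.t1.1), 2 gained it (Cre10.g448450.t1.2), and none of those called reversed. The strain difference counted 265 genes at a minimum of 5 RPKM and 222 to 754 leaving out each library. With the time point as a replicate block it counted 935, and of the named loci's differences this block changed the call of Cre10.g448450.t1.2 alone. The cause of these shifts was not tested. Depth limits loci near 3 reads.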
